A study of Mus musculus with 15 samples.

Results

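S724A IRE1a is a form of the stress sensor IRE1a in which the serine at position 724 is replaced by alanine. Its effect on messenger RNA was measured by setting 3 arrays of primary mouse hepatocytes that carried S724A IRE1a against 3 arrays of hepatocytes that carried EGFP, a green fluorescent protein that serves as the control cargo. These are 6 of the 15 arrays of the study, and they were chosen by their labels alone. All hepatocytes came from C57BL/6 mice and were cultured at 37 °C in HepatoZYME-SFM, a serum-free hepatocyte medium. An adenovirus brought in EGFP, wild-type IRE1a or S724A IRE1a, the cells were collected after 48 hours, and the labels give them no further treatment. In a separate arm the viruses carried hairpins, either a control or one directed at IRE1a, for 72 hours and glucagon was added for 4 hours. Those arrays bear on the results below through the estimate of the spread, the choice of each gene's probe set and the signal filter. The series text states that 3 experiments were done independently, and each group has 3 arrays, 1 per RNA sample. All groups carried an adenovirus, and no label names a deletion of the hepatocytes' own IRE1a gene, Ern1. The promoter and the dose of the viruses and the age of the mice are not given in the sources used here.

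IRE1a spans the membrane of the endoplasmic reticulum (ER), the compartment where secreted and membrane proteins fold. When unfolded proteins build up, its kinase domain phosphorylates serines of its own activation loop, among them the serine replaced here, and its RNase domain is switched on. Through that RNase the XBP1 message is spliced, and the transcription factor it then encodes drives genes for folding, glycosylation, transport and degradation of ER proteins, and it can also cut other messenger RNAs, a process known as regulated IRE1-dependent decay. Hepatocytes carry a heavy load of secreted plasma proteins, so their ER capacity bears on much of what the liver makes.

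Values are log2 signals of the brightest probe set of each gene, and changes are S724A IRE1a minus EGFP on that scale, ± SE, with n = 3 arrays per group. A gene rose or fell where the adjusted p of limma's moderated test was under 0.05. Of 16294 genes tested, 997 passed (6.12%): 631 rose (3.87%) and 366 fell (2.25%). The 3 S724A arrays lay wholly above or wholly below the 3 EGFP arrays for 996 of these 997 genes, the exception being Sema6a. That separation alone was found for 5436 genes, 33.4% of those tested. At 2-fold or more, 123 genes rose (0.755%) and 70 fell (0.43%). Arrays that share a replicate number deviated from their group means together, and with that number as a block 2347 genes passed (14.4%), 1448 higher (8.89%) and 899 lower (5.52%), all 997 among them. The count without the block was 485 without EGFP replicate 2, 642 without EGFP replicate 3, 538 without S724A replicate 2 and 596 without S724A replicate 3. Rises made up 63.3% of the 997 calls, but 48.4% after a further quantile normalisation of the table. The median change of all genes was -0.01, and 7852 of the 16294 changes were above 0.

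Each of the 9 hepatocyte markers read 9.05 or more on all 6 arrays, and their summed level on the log2 scale lay between 15.99 and 16.02 on the EGFP arrays and between 15.82 and 15.89 on the S724A arrays. Albumin (Alb) read 14.15 to 14.56 over the 6 arrays and transthyretin (Ttr) 13.71 to 13.95. Other markers moved, and the groups did not overlap for 5 of the 9, against 33.4% of all genes tested. Cyp2e1 read 12.36 to 12.64 with EGFP and 10.38 to 11.20 with S724A IRE1a. Fabp1 (9.71 to 10.13 against 10.54 to 10.61) and Hnf4a (10.29 to 10.76 against 10.89 to 11.39) were higher. Of the 9 changes 4 were above 0. Of 10 macrophage markers, Cd68 and Cd14 read 11.56 to 12.03 and 11.01 to 12.49, while the resident macrophage genes Adgre1, Clec4f, Vsig4 and Marco read 5.24 to 5.57, 5.17 to 5.56, 3.80 to 4.59 and 4.52 to 5.01. The probes of the markers of endothelial cells, stellate cells, bile duct cells, blood leukocytes and red cells stayed at or below 7.50. Signals of different probes do not rank levels between genes. In RNA from a whole culture, fewer cells of a type and less RNA per cell cannot be told apart.

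The gene for IRE1a itself was checked first. Ern1 read 9.41, 8.68 and 8.81 with EGFP and 9.68, 9.04 and 9.54 with S724A IRE1a on its brightest probe set, so the groups overlapped. The difference was 0.46 ± 0.19 (adjusted p = 0.159), and it passed only with the replicate block (adjusted p = 0.0215). The other 4 of its 5 probe sets differed by -0.37 to 0.23, and none passed. With wild-type IRE1a the same probe set differed by 0.12 ± 0.19 (adjusted p = 0.775). The files do not say whether these probes read the message of the virus, so Ern1 does not serve as a check of the labels.

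Xbp1, whose messenger RNA is the splicing substrate of IRE1a, rose modestly, and the array does not separate its spliced form. Its signal was 12.39, 12.21 and 12.31 with EGFP and 12.80, 12.91 and 12.75 with S724A IRE1a, with no overlap. That is a rise of 0.52 ± 0.11 (1.43-fold, adjusted p = 0.0137), and 3 of its 4 probe sets passed. The call did not hold when EGFP replicate 2 or S724A replicate 2 was left out (highest adjusted p 0.0737). Of 16 genes for sensors and transcription factors of the unfolded protein response, 4 rose and none fell, with a median change of 0.30. Leaving out EGFP replicate 2 left 2 of the 4, and the replicate block made it 7 by adding Atf6, Creb3l3 and Ern1. Eif2ak3, which encodes the sensor kinase PERK, rose by 1.33 ± 0.23 (2.52-fold, adjusted p = 0.00255), with EGFP arrays at 8.50 to 8.59 and S724A arrays at 9.61 to 10.10. Creb3l2, a membrane-bound transcription factor of secretory cells, rose by 1.16 ± 0.22. Mbtps1, the Golgi protease that releases such factors, rose by 0.58 ± 0.13, a call that was missed for the mean of all its probe sets (0.35) and without EGFP replicate 2 or 3, or S724A replicate 3 (highest adjusted p 0.0956).

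The genes with the largest rises are given first. Arfgef3, a gene of the family of ARF exchange factors that is known from secretory granules, read 3.94, 3.99 and 4.28 with EGFP and 7.67, 8.05 and 7.52 with S724A IRE1a. The EGFP arrays lie at about the filter of 4, which the gene passed through the groups where it is high, so the size of its change, 3.68 ± 0.17 (adjusted p = 1.05e-08), is a poor measure of fold. The second probe set differed by 2.34 ± 0.21, from an EGFP signal of 2.81 to 2.95. Bhlha15 encodes MIST1, a transcription factor of cells that specialise in secretion and a known XBP1 target. Its EGFP arrays read 6.33, 6.09 and 5.78 and its S724A arrays 9.27, 10.21 and 9.25, a rise of 3.51 ± 0.25 (11.4-fold, adjusted p = 1.02e-06). Its second probe set differed by 0.91 ± 0.27 without passing, and the mean of both gave 2.21.

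Sdf2l1, a cofactor that keeps BiP clients soluble, read 7.30, 6.98 and 7.23 with EGFP and 9.55, 10.07 and 9.74 with S724A IRE1a, a rise of 2.62 ± 0.26 (6.14-fold, adjusted p = 2.02e-05). Manf, a secreted ER stress protein, rose by 2.48 ± 0.11, from 10.40 to 10.69 up to 12.89 to 13.13. In both genes every S724A array lay far above every EGFP array, and both calls held in all 16 alternatives. Nucb2, a calcium-binding protein of the secretory pathway, rose by 3.07 ± 0.23, Arfgap3, a GTPase-activating protein of the COPI coat, by 2.44 ± 0.19 and Vasn, a membrane protein, by 2.27 ± 0.21. For Vasn 1 of 2 probe sets passed, and their mean gave 1.46. Gm17767, a predicted gene, rose by 2.35 ± 0.32.

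**Figure D1:**
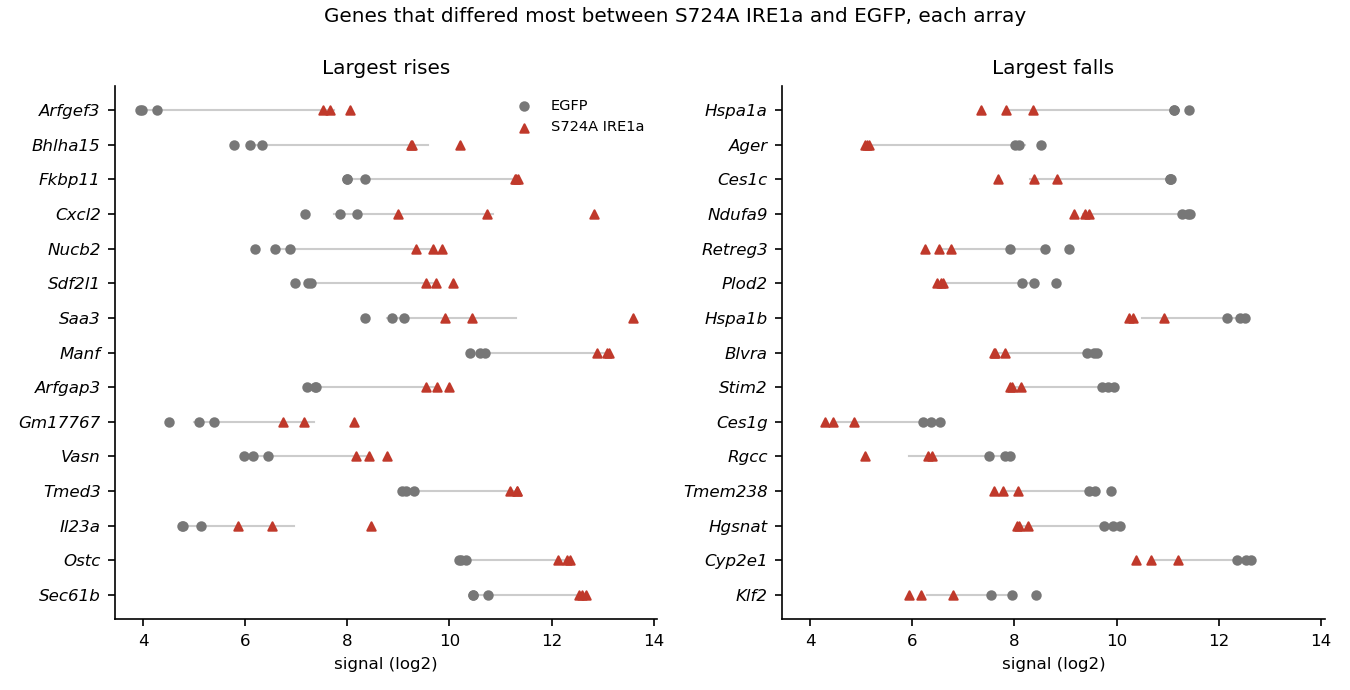
Log2 signals of the 15 genes with the largest rises (left) and the 15 with the largest falls (right); each circle is 1 EGFP array, each triangle 1 S724A IRE1a array, and the grey line joins the group means. Most genes show tight groups far apart, as Fkbp11 does with 7.99 to 8.34 against 11.29 to 11.35, while the S724A arrays of Cxcl2 spread from 9.0 to 12.83 and those of Saa3 and Il23a have 1 array far to the right.

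The falls were led by a heat shock gene. Hspa1a, the inducible cytosolic HSP70, read 11.13, 11.41 and 11.13 with EGFP and 7.34, 8.37 and 7.83 with S724A IRE1a, a change of -3.37 ± 0.36 (10.4-fold lower, adjusted p = 4.14e-05). Its near-identical neighbour Hspa1b changed by -1.86 ± 0.20 with 3 of 3 probe sets, and probes of this pair may not tell the copies apart. Ndufa9, an accessory subunit of respiratory complex I, read 11.39, 11.29 and 11.44 with EGFP against 9.46, 9.17 and 9.39 with S724A IRE1a, a change of -2.03 ± 0.09 (4.09-fold lower, adjusted p = 1.16e-08). Of 72 respiratory chain genes 3 fell and none rose, against 2.25% and 3.87% of all genes, with a median change of 0.05. The others that fell were the ATP synthase subunits Atp5d (-0.50 ± 0.09) and Atp5o (-0.53 ± 0.10). With the replicate block 5 were lower, among them Ndufs4 of complex I at -0.32, and 3 higher, against 5.52% and 8.89% of all genes. Ager, the receptor for advanced glycation end products, changed by -3.10 ± 0.17 on 1 probe set, while its other probe set differed by 0.02 ± 0.11. Blvra, which reduces biliverdin to bilirubin, changed by -1.85 ± 0.11, Stim2, an ER calcium sensor, by -1.83 ± 0.12 on 1 of 2 probe sets, Tmem238 by -1.82 ± 0.16 and Klf2, a transcription factor, by -1.68 ± 0.25. With the means of their probe sets Ager and Stim2 changed by -1.54 and -1.16.

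Among the folding genes, 13 of 18 genes of BiP, GRP94 and their cochaperones rose and none fell, against 3.87% of all genes, with a median change of 0.70. Hspa5 encodes BiP, the main ER chaperone. It was already near the top of the scale at 13.12, 13.20 and 13.20 with EGFP and reached 13.97, 14.08 and 13.96, a rise of 0.83 ± 0.11 (1.78-fold, adjusted p = 0.000262). Its second probe set rose by 1.21 ± 0.12 and its remaining one did not pass (adjusted p over probe sets = 0.998). Hsp90b1, which encodes GRP94, rose by 1.40 ± 0.11 (2.64-fold, adjusted p = 1.76e-06), from 10.63 to 10.67 up to 11.97 to 12.12. The cochaperone Dnajb9, a marker of XBP1 activity, rose by 1.28 ± 0.20, Hspa13 by 1.51 ± 0.11 and Creld2, an ER stress protein with disulfide isomerase activity, by 1.88 ± 0.15. Ficd, the enzyme that AMPylates BiP, rose by 1.51 ± 0.12 and was picked after its values were seen.

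Of 20 protein disulfide isomerases and oxidases, 9 rose and 1 fell, with a median change of 0.40. Pdia6 was the leading isomerase, with 10.63, 10.54 and 10.40 under EGFP and 12.48, 12.61 and 12.52 under S724A IRE1a. The groups lay far apart, a rise of 2.01 ± 0.12 (4.03-fold, adjusted p = 1.27e-07). Its other, dim probe set differed by 0.17 ± 0.22, which brought the mean of both to 1.09. Txndc11, a thioredoxin-domain protein, rose by 1.94 ± 0.17, the oxidase Ero1b by 1.54 ± 0.13 and P4hb, the founding isomerase PDI, by 1.32 ± 0.12. As the mean of all its probe sets Ero1b rose by 0.88. The member that fell was Tmx3, a membrane-bound isomerase, at -0.52 ± 0.13, a call lost by median centring and on leaving out any 1 of the 6 arrays but EGFP replicate 2 (highest adjusted p 0.0870). Among 7 ER prolyl isomerases 4 rose, led by Fkbp11 at 3.21 ± 0.11 (9.26-fold, adjusted p = 8.77e-10). Only 1 of the 3 probe sets of Fkbp11 passed, and their mean gave 1.10. Ppib rose by 1.06 ± 0.11 and Fkbp2 by 0.85 ± 0.14. Of 15 genes of the calnexin cycle and ER calcium binding 6 rose, among them Calr (calreticulin) by 1.34 ± 0.13 and Uggt1, the sensor of misfolded glycoproteins, by 0.86 ± 0.15 (0.39 as the mean of all its probe sets). That count was 3 without EGFP replicate 2, or S724A replicate 2 or 3.

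Several of these folding genes carry a known control element in their promoters. The windows printed below come from genes picked because they rose, and the role of the element in these changes was not tested. The ER stress response element (ERSE) is spelled CCAAT, any 9 bases, then CCACG. ERSE-II is ATTGG, any 1 base, then CCACG, and the unfolded protein response element (UPRE) was searched as its core TGACGTGG. All 3 were searched on both strands of the 300 bases around each listed start of a gene (250 before and 50 after) in the RefSeq promoters of GRCm38.p6. Genes with several listed starts have several windows. ERSE and ERSE-II both end in CCACG, so an ERSE-II can lie inside an ERSE, but no tested gene held both. The 250 bases before the start follow for 4 genes, with the match in capitals. They are the largest rises, among the genes named by rule, whose ERSE or UPRE match lies wholly before the start. Genes with only an ERSE-II, such as Herpud1, were not considered for printing. Syvn1, which rose by more than Ero1b, was named only after its values were seen, and its element is given further on.
Pdia6: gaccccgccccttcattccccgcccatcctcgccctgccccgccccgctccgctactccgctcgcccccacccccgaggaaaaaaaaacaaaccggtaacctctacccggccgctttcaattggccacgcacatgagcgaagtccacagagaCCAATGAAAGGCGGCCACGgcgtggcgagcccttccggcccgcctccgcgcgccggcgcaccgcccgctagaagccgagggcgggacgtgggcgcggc
Txndc11: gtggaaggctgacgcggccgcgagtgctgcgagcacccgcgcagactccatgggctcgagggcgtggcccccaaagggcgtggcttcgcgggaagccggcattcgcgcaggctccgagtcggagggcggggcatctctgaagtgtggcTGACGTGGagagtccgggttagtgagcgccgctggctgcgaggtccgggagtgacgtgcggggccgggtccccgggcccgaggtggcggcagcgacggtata
Creld2: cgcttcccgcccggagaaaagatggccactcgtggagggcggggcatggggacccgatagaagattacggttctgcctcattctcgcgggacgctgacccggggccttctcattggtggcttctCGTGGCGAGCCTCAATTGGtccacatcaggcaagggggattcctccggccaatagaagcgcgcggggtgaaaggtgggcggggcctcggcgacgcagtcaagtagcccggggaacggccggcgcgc
Ero1b: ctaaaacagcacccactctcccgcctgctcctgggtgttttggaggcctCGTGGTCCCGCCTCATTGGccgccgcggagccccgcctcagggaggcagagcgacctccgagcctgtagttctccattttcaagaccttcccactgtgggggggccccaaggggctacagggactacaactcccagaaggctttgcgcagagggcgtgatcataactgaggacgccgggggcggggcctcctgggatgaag
The Pdia6 window is chr12:17266339-17266588 on the plus strand and that of Txndc11 chr16:11134533-11134782 on the minus strand. Those of Creld2 and Ero1b are chr15:88819396-88819645 and chr13:12565633-12565882, both on the plus strand. Pdia6 holds its ERSE on the gene's strand, Creld2 and Ero1b hold theirs on the other strand, so that the capitals read as the reverse complement, and Txndc11 holds a UPRE core.

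Of 12994 tested genes with a promoter in the table, 20 held an ERSE in at least 1 window (0.154%). Counted by window and not by gene, 39 of all 32851 promoters held one (0.119%), so these 2 shares differ in unit. Among 521 risen genes with a promoter 11 held one (2.11%), and among 282 fallen genes none did. For ERSE-II the counts were 9 of 12994 (0.0693%), 5 of 521 risen genes (0.96%) and none of 282 fallen genes. The UPRE core was found in 134 of 12994 (1.03%), in 18 of 521 risen genes (3.45%) and in 2 of 282 fallen genes (0.709%). These shares are descriptions, and no test was made of them. A match marks letters in a window and not a bound site.

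The 11 risen genes with an ERSE were Pdia6, Creld2, Syvn1, Ero1b, Hsp90b1, Calr, Alg12, Hspa5, Dnajc3, Pan2 and Canx, some of them named after their values were seen. Creld2 and Alg12 are neighbours that share a single match, at chr15:88819520-88819538, read from opposite strands. Hsp90b1 holds 2 matches. The letters of the matched elements, written 5′ to 3′ on the strand of the element with its fixed bases in capitals, show how the variable spacer differs between genes that rose and, in the last pair, genes that did not pass.
Pdia6: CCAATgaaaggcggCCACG
Creld2: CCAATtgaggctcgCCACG
Syvn1: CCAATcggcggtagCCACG
Ero1b: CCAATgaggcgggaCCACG
Hsp90b1, match 1: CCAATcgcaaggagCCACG
Hsp90b1, match 2: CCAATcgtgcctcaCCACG
Calr: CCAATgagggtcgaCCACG
Hspa5: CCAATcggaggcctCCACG
Dnajc3: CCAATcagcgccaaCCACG
Pan2: CCAATcagcgggggCCACG
Canx: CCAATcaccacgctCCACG
Derl3: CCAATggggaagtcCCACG
Acacb: CCAATagccttgccCCACG
The changes of the 11 genes ran from 0.47 ± 0.11 for Canx (calnexin) to 2.01 ± 0.12 for Pdia6. Syvn1, the ubiquitin ligase HRD1 of ER-associated degradation, rose by 1.65 ± 0.19, Dnajc3, the cochaperone p58IPK, by 0.80 ± 0.11 and Pan2, a deadenylase subunit, by 0.62 ± 0.10. The other 9 genes with the element did not pass. They include Derl3, a paralogue of the degradation factor Derl1, which differed by -0.01 ± 0.13, and Acacb, an acetyl-CoA carboxylase, at -0.09 ± 0.10. The call of Canx did not hold without EGFP replicate 2, or S724A replicate 2 or 3 (highest adjusted p 0.128), and the mean of its probe sets gave 0.78.

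**Figure D2:**
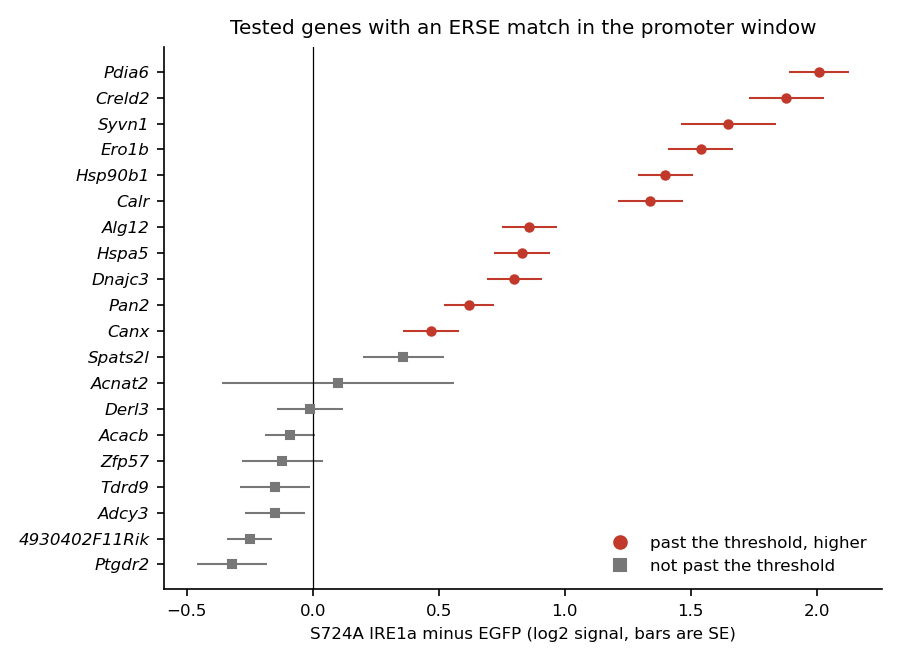
Change with S724A IRE1a (log2 signal, S724A minus EGFP, bars are SE, n = 3 arrays per group) of the 20 tested genes whose promoter window holds an ERSE; circles passed the threshold and squares did not. The 11 genes that passed all lie to the right of 0, from Canx at 0.47 to Pdia6 at 2.01, and the other 9 lie between -0.32 and 0.36.

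Of 12 genes of the signal peptidase and the signal recognition particle with its receptor, 11 rose and all 12 changes were above 0, with a median of 0.84. Spcs2, a signal peptidase subunit, read 11.28, 11.19 and 11.25 with EGFP and 12.56, 12.59 and 12.44 with S724A IRE1a, a rise of 1.29 ± 0.09 (2.45-fold, adjusted p = 4.03e-07). Sec11c, a catalytic subunit, rose by 1.68 ± 0.11 (0.95 as the mean of all its probe sets), Spcs3 by 1.57 ± 0.15 and Srprb, of the receptor, by 1.41 ± 0.12. Of 11 genes of the Sec61 channel and the TRAP complex 7 rose. The small channel subunit Sec61b went from 10.47 to 10.75 up to 12.53 to 12.67, a rise of 2.03 ± 0.12 (4.09-fold, adjusted p = 1.71e-07), and the pore subunit Sec61a1 rose by 1.37 ± 0.10 in 6 of 6 probe sets. Of 16 genes of the other insertion routes, the EMC and GET pathways, 13 changes were above 0, with a median of 0.06. Limma placed none of them past the threshold. As 3.87% of all genes rose, 0 calls in a list of this size is near that share. The nearest were Emc8 at 0.38 ± 0.12 (adjusted p = 0.0804, and 0.0250 with the replicate block) and Emc9 at 0.30 ± 0.11 (adjusted p = 0.125). Whether the channel and EMC lists differ from each other was not tested.

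Of 12 oligosaccharyltransferase genes, which encode the enzyme that transfers the glycan to the nascent chain, 10 rose and all 12 changes were above 0, with a median of 0.65. Ostc read 10.33, 10.22 and 10.18 with EGFP and 12.13, 12.37 and 12.31 with S724A IRE1a, a rise of 2.03 ± 0.16 (4.07-fold, adjusted p = 1.76e-06). Magt1, which is also known as a magnesium transporter, rose by 1.76 ± 0.13, and Dad1 by 1.00 ± 0.11. Of 34 genes that build and trim the dolichol-linked glycan 12 rose and 1 fell. Gmppb, which makes GDP-mannose, rose by 1.74 ± 0.21, its regulator Gmppa by 1.15 ± 0.11 in 5 of 5 probe sets, and Dpagt1, the first enzyme of the pathway, by 0.94 ± 0.10. Alg2, a mannosyltransferase, rose by 1.34 ± 0.15, or by 0.57 as the mean of all its probe sets. The member that fell was Alg1, the first mannosyltransferase, with 8.91, 8.95 and 8.91 against 8.55, 8.33 and 8.35, a change of -0.51 ± 0.10 (adjusted p = 0.00751).

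Genes for traffic between the ER and the Golgi were followed in 4 lists. Of 16 COPII coat genes 8 rose, with Sec24d at 1.39 ± 0.14 (2.62-fold), Sec23b at 0.80 ± 0.10 and the GTPase Sar1a at 0.76 ± 0.11. Of 18 cargo receptors and p24 proteins 8 rose. Lman1, the receptor that carries coagulation factors V and VIII out of the ER, rose by 1.45 ± 0.11 in 4 of 5 probe sets, and its partner Mcfd2 rose by 1.02 ± 0.10. Tmed3, a p24 protein, rose by 2.10 ± 0.14, with 1 of 2 probe sets and a mean of 1.23, and the receptor Surf4 by 1.31 ± 0.15 in 5 of 5 probe sets. For the retrograde COPI coat and the KDEL receptors, which return escaped chaperones, 9 of 19 rose, with a median of 0.52. Kdelr3 read 8.36, 8.61 and 8.55 with EGFP and 9.73, 9.97 and 9.84 with S724A IRE1a, a rise of 1.34 ± 0.16 (2.53-fold, adjusted p = 0.000119). Of 26 tethers and SNAREs 10 rose, 6 of them without EGFP replicate 2, with Uso1, the tether p115, at 1.22 ± 0.13 and Bet1 at 1.12 ± 0.13. None of these 4 lists held a member that fell, although with the replicate block Sec23a, Ergic3 and Rab1b were called lower.

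In the degradation of ER proteins (ERAD), 8 of 27 genes rose and none fell, and 13 rose with the replicate block. Edem2, which trims mannose from misfolded glycoproteins, went from 8.80, 8.49 and 8.60 to 10.23, 10.35 and 10.41, a rise of 1.70 ± 0.15 (3.25-fold, adjusted p = 5.04e-06) on 1 of 2 probe sets, with a mean of 0.96. Herpud1, an ERAD scaffold whose promoter holds an ERSE-II, rose by 1.68 ± 0.17, Selenos by 1.30 ± 0.12 and Derl1 by 1.04 ± 0.10 in 4 of 4 probe sets. Of 19 genes of ER shape and ER-phagy 2 rose and 3 fell, 4 and 5 with the replicate block. The shares of all genes were 3.87% and 2.25%, and 8.89% and 5.52% with the block. Ccpg1, an ER-phagy receptor, rose by 0.80 ± 0.13 and Atl1 by 1.05 ± 0.22, while Tex264, another such receptor, changed by -1.16 ± 0.13, Retreg3 by -2.02 ± 0.33 and Atl3 by -0.80 ± 0.14. Atl1 was no longer called without EGFP replicate 3 or S724A replicate 2 (highest adjusted p 0.0523), and the mean of the probe sets gave Retreg3 -0.98. Of 23 zinc transporters 6 rose and 1 fell. The fall, of Slc39a8 at -0.51 ± 0.14 (adjusted p = 0.0484), was lost in 10 of 16 alternatives, among them leaving out any 1 array but EGFP replicate 2 (highest adjusted p 0.155). Among the risen were Slc30a7 at 1.06 ± 0.14 and Slc30a5 at 0.52 ± 0.09, which move zinc into the secretory pathway, and Slc39a7, which releases it from the ER, at 0.56 ± 0.14. The count of rises was 3 without EGFP replicate 2 or 3, or S724A replicate 3, and Slc39a7 was lost without any 1 of the 6 arrays but EGFP replicate 1 (highest adjusted p 0.114).

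**Figure D3:**
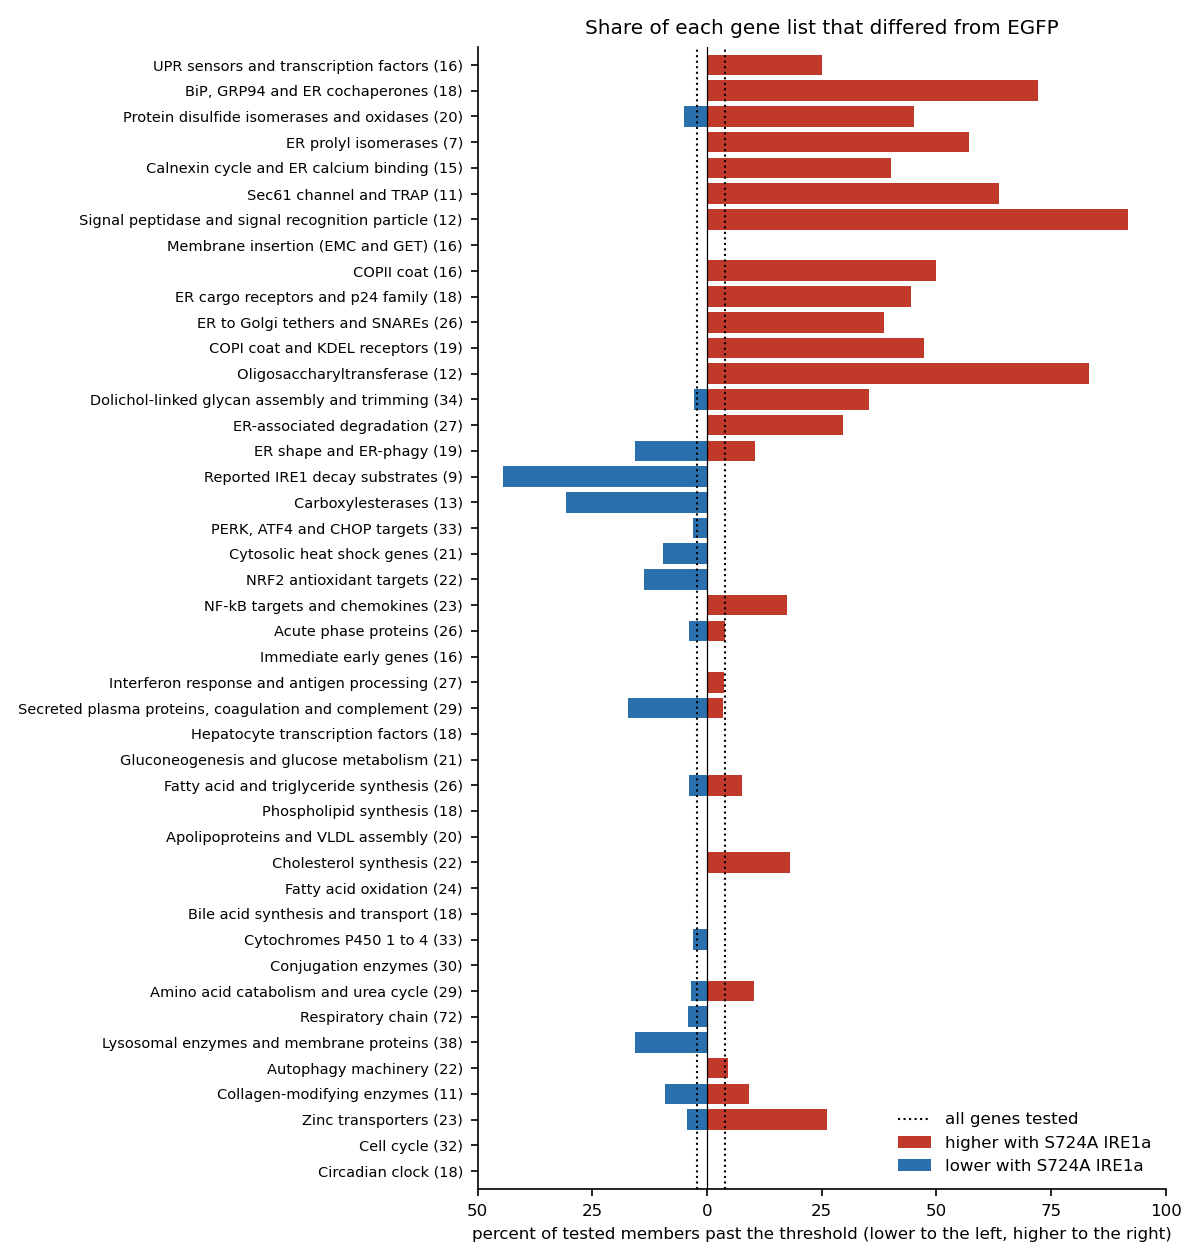
Percent of the tested members of each gene list (number tested in brackets) that passed the threshold with S724A IRE1a against EGFP, higher to the right in red and lower to the left in blue; dotted lines mark 3.87% higher and 2.25% lower among all 16294 genes. Red bars extend past the dotted line for the ER folding, entry, glycosylation, traffic and degradation lists, and the EMC and GET list has none. The blue bars are longest for the reported decay substrates and the carboxylesterases.

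Of 33 targets of PERK, ATF4 and CHOP none rose and 1 fell, against 3.87% and 2.25% of all genes. With the replicate block 6 were higher (Chac1, Aldh18a1, Slc7a1, Nupr1, Fgf21 and Gpt2) and 2 lower, against 8.89% and 5.52% of all genes. Ddit3, which encodes CHOP, read 9.20, 8.89 and 9.56 with EGFP and 9.43, 9.47 and 9.30 with S724A IRE1a. The groups overlapped, with a difference of 0.18 ± 0.19 (adjusted p = 0.584). Atf4 differed by 0.13 ± 0.12 (adjusted p = 0.549). The hormone gene Fgf21 read 6.44, 6.12 and 7.65 against 6.58, 7.49 and 8.23, higher in each same-number pair, and its 0.70 ± 0.51 passed only with the replicate block (adjusted p = 0.0367). The gene that fell was Vldlr, a lipoprotein receptor, at -1.64 ± 0.43, which depended on every array but EGFP replicate 1 (highest adjusted p 0.125) and on 1 of 6 probe sets, whose mean gave -0.98.

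Of 9 tested genes reported elsewhere as decay substrates of the IRE1 RNase, 4 fell, against 2.25% of all genes. The median change was -0.59, and 1 of the 9 changes was above 0. Hgsnat, a lysosomal acetyltransferase, read 10.07, 9.75 and 9.92 with EGFP and 8.26, 8.09 and 8.05 with S724A IRE1a, a change of -1.78 ± 0.10 (3.44-fold lower, adjusted p = 1.54e-07) that held in all 16 alternatives. The other 3 calls were less firm. The cytochrome Cyp2e1, also a hepatocyte marker, read 12.54, 12.36 and 12.64 against 11.20, 10.67 and 10.38, a change of -1.76 ± 0.43 (adjusted p = 0.0256) that needed each array but S724A replicate 1. Tapbp, the peptide loading factor tapasin, changed by -0.71 ± 0.17 and Col6a1, a collagen chain, by -0.59 ± 0.15. Tapbp was lost without EGFP replicate 1, or S724A replicate 1 or 2 (highest adjusted p 0.104), and Col6a1 without any array but EGFP replicate 3 (highest adjusted p 0.166). Leaving out 1 array left 1 to 3 of the 4 calls.

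Of 13 carboxylesterases, enzymes that cleave esters of drugs and lipids, 4 fell, 7 with the replicate block, and none rose in either fit. The shares of all genes that fell were 2.25%, and 5.52% with the block. Ces1c read 11.06, 11.05 and 11.04 with EGFP and 8.84, 8.38 and 7.67 with S724A IRE1a, a change of -2.75 ± 0.26 (6.73-fold lower, adjusted p = 1.08e-05). Ces1g changed by -1.83 ± 0.31, Ces1f by -1.48 ± 0.32 and Ces2a by -1.24 ± 0.26. The last did not pass without EGFP replicate 3 (adjusted p = 0.0569), and Ces1f did not without EGFP replicate 2, or S724A replicate 2 or 3 (highest adjusted p 0.0748). Against 2.25% and 3.87% of all genes, 6 of 38 lysosomal genes fell and none rose. Besides Hgsnat they were Lamp1, a membrane protein, at -1.07 ± 0.12 (12.06 to 12.15 against 10.93 to 11.26), the protease Ctsb at -0.84 ± 0.13, Tpp1 at -0.94 ± 0.19, Arsb at -0.60 ± 0.14 and Gaa at -0.38 ± 0.11. Gaa lost its call on leaving out any 1 of the 6 arrays (highest adjusted p 0.142), and Arsb without EGFP replicate 1, or S724A replicate 1 or 2 (highest adjusted p 0.0867), with -0.35 for the mean of its probe sets. With the block 3 others, Ctsh, Neu1 and Lipa, were higher, against 8.89% of all genes.

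Of 21 cytosolic heat shock genes only Hspa1a and Hspa1b fell, and the block added Chordc1, Hsp90aa1 and Hspa4l. For all genes the share that fell was 2.25%, and 5.52% with the block. Of 22 targets of NRF2, the antioxidant factor, 3 fell, against the same 2.25%. Txnrd1, thioredoxin reductase, read 12.21, 12.12 and 12.34 against 11.40, 11.28 and 11.52, a change of -0.83 ± 0.12 in 3 of 3 probe sets, and the pentose phosphate enzyme Taldo1 changed by -1.45 ± 0.21. Abcc4, an efflux pump, changed by -1.02 ± 0.24, a call that was missed without EGFP replicate 3, or S724A replicate 1 or 2 (highest adjusted p 0.0931). Among collagen-modifying enzymes P3h1, a prolyl hydroxylase, rose by 1.43 ± 0.16 and Plod2, a lysyl hydroxylase, changed by -1.89 ± 0.35, from 8.15 to 8.81 down to 6.48 to 6.61.

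The inflammatory genes that rose varied widely between the S724A arrays. Cxcl2, a chemokine that attracts neutrophils, read 7.85, 7.18 and 8.19 with EGFP and 9.0, 10.74 and 12.83 with S724A IRE1a. All 3 S724A arrays were above the EGFP arrays, yet they spanned almost 4 units among themselves. The rise was 3.11 ± 0.87 (8.66-fold, adjusted p = 0.0493, and 0.00332 with the replicate block). It was lost without any EGFP array, without S724A replicate 2 or 3, and in 5 other settings (highest adjusted p 0.187). S724A replicate 3 was also the highest array for Cxcl1 (10.98, 12.15 and 13.70 against 10.26 to 10.74), Ccl2 (11.30, 12.35 and 13.40 against 10.64 to 10.83), Saa3, an acute phase protein (9.91, 10.44 and 13.59 against 8.34 to 9.11), and Il23a, a cytokine subunit (5.87, 6.53 and 8.47 against 4.77 to 5.14).

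The rises of these 4 genes were 1.82 ± 0.51, 1.63 ± 0.40, 2.54 ± 0.66 and 2.06 ± 0.44, with adjusted p = 0.0493, 0.0278, 0.0362 and 0.0121. Without S724A replicate 3, Saa3 was 1.41, Il23a 1.30 and Cxcl1 1.11. Il23a kept its call there and lost it without EGFP replicate 2 and from the 6 arrays alone (highest adjusted p 0.0594). Cxcl1, Ccl2 and Saa3 each lost theirs without any 1 of the EGFP arrays and from the 6 arrays alone (highest adjusted p 0.172), and Cxcl1 and Ccl2 also without S724A replicate 2 or 3. Ikbke, an NF-kB pathway kinase named after its values were seen, read 8.16, 7.75 and 7.98 against 9.08, 9.58 and 11.10, a rise of 1.96 ± 0.37 (adjusted p = 0.00524) that held in all 16 alternatives.

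Of 23 NF-kB targets and chemokines 4 rose, with a median change of 0.40, and the fourth was the mitochondrial dismutase Sod2 at 0.57 ± 0.12, which was lost for the mean of all its probe sets and without EGFP replicate 2. The count ran from 0 without EGFP replicate 2 to 9 without S724A replicate 1, was 1 without EGFP replicate 1, EGFP replicate 3, or S724A replicate 2 or 3, and was 2 after quantile normalisation and 6 with the block, which added Nfkbia and Nfkbiz. The summed macrophage markers were higher with S724A IRE1a, at 13.01 to 13.32 against 12.54 to 12.74. That sum was carried by Cd14 (0.88 ± 0.32, adjusted p = 0.118, and 0.00649 with the block) and Cd68 (0.29 ± 0.15, adjusted p = 0.246). The median change of the 10 markers was 0.00, and 5 of the 10 changes were above 0. None of the 10 markers passed without the block, and their part in the inflammatory values was not tested. Of 26 acute phase genes Saa3 rose and Itih4 changed by -1.31 ± 0.18. Of 27 interferon and antigen processing genes the peptide transporter Tap1 rose, by 0.53 ± 0.12 on 1 of 4 probe sets, or 0.16 with their mean. It was lost without EGFP replicate 2 or S724A replicate 3. Among all genes 3.87% rose and 2.25% fell, so 1 call in a list of this size is near those shares.

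**Figure D4:**
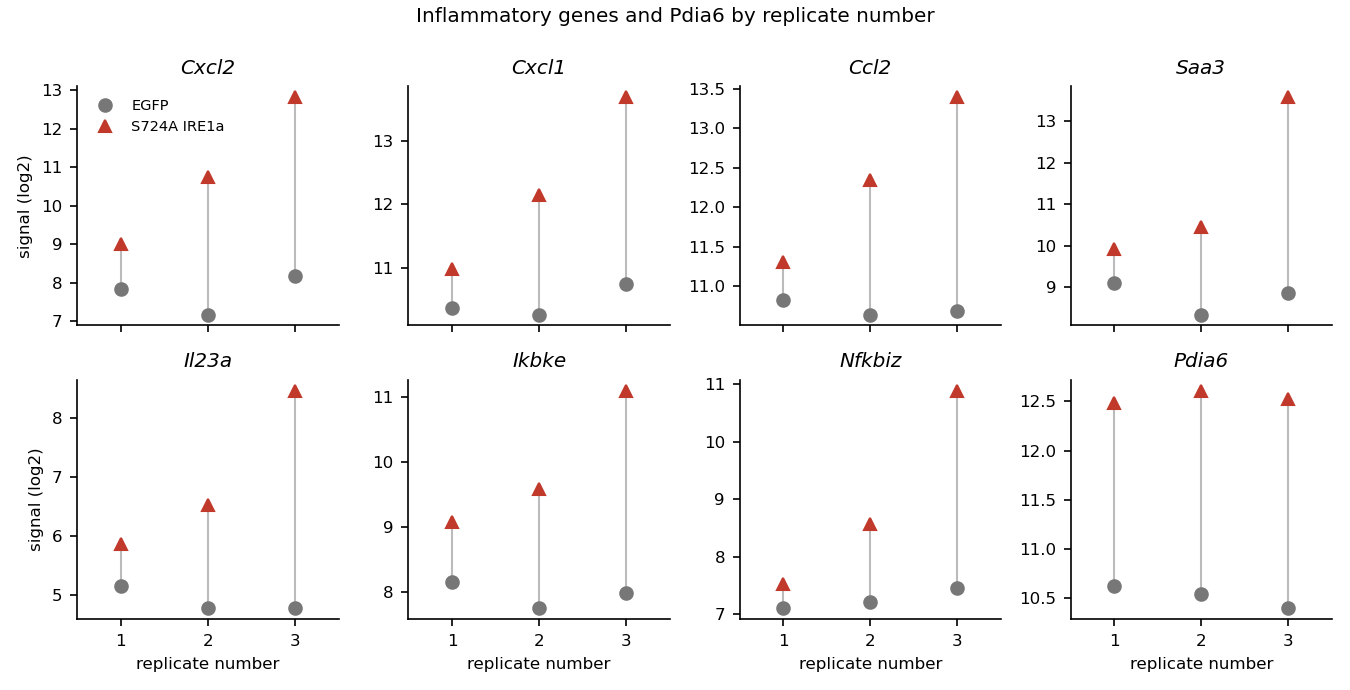
Log2 signals of 7 inflammatory genes and of Pdia6 for EGFP (circles) and S724A IRE1a (triangles) by replicate number, with a grey line joining arrays of the same number; the y axes differ between panels and do not start at 0. The S724A array of replicate 3 stands highest for the 7 inflammatory genes, while the S724A arrays of Pdia6 lie between 12.48 and 12.61.

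Metabolic genes of the hepatocyte were followed in several lists, beside 3.87% higher and 2.25% lower among all genes. Of 21 genes of gluconeogenesis and glucose metabolism limma placed none past the threshold. G6pc, the last enzyme of glucose release, read 11.15, 7.83 and 8.81 with EGFP and 11.85, 8.37 and 7.84 with S724A IRE1a. Replicate 1 was high in both groups, and the difference was 0.09 ± 1.07 (adjusted p = 0.968). Pck1, the rate-limiting enzyme of gluconeogenesis, read 5.34, 5.02 and 5.71 against 6.17, 5.8 and 5.99, with no overlap, and its 0.63 ± 0.22 passed only with the block (adjusted p = 0.0326). The other probe sets of Pck1 differed by -0.24 and -0.09, and the mean of all gave 0.10. Tat, tyrosine aminotransferase, was likewise higher in each same-number pair, by 0.78 ± 0.27 (adjusted p = 0.100, and 0.00107 with the block). The coactivator gene Ppargc1a differed by -0.40 ± 0.32 (adjusted p = 0.469).

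Plasma protein genes held more falls than rises. Of 29 secreted proteins of coagulation, complement and transport 5 fell and 1 rose, against 2.25% and 3.87% of all genes. Of the 29 changes 5 were above 0, with a median of -0.18. Hc, complement C5, read 8.98, 8.60 and 9.20 with EGFP and 7.48, 7.02 and 7.47 with S724A IRE1a, a change of -1.61 ± 0.21 (3.04-fold lower, adjusted p = 0.000246). Coagulation factor F7 changed by -1.0 ± 0.15, protein C (Proc) by -1.01 ± 0.20, prothrombin (F2) by -0.74 ± 0.14 and F12 by -0.57 ± 0.13, the last not without EGFP replicate 1 or S724A replicate 3 (highest adjusted p 0.0758). Albumin itself differed by -0.26 (adjusted p = 0.110). The member that rose, Masp1 at 0.74 ± 0.20, did not pass when p-values were adjusted over probe sets (0.0551), where a dimmer one of its 5 probe sets did (0.98 ± 0.19). It was 0.48 without EGFP replicate 2 and lost its call after quantile normalisation, from the 6 arrays alone and without any array but EGFP replicate 3 (highest adjusted p 0.189).

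In lipid metabolism the phosphatidate phosphatases Lpin3 and Lpin2 rose by 1.52 ± 0.29 and 0.54 ± 0.11, the latter not without EGFP replicate 2 or S724A replicate 3 (highest adjusted p 0.0592), and Dgat2, the last enzyme of triglyceride synthesis, changed by -1.23 ± 0.29. Dgat2 read 9.96 to 10.05 with EGFP and 8.31, 8.20 and 9.80 with S724A IRE1a, so replicate 3 hardly differed, and the call was lost without any EGFP array, without S724A replicate 1 or 2 and from the 6 arrays alone (highest adjusted p 0.0987). Of 22 cholesterol synthesis genes 4 rose, led by Dhcr7 at 0.87 ± 0.16. The calls of the other 3, Ebp, Scap and Msmo1, depended on single arrays (highest adjusted p 0.180), and 1 to 3 of the 4 stood when 1 array was left out. Of 29 genes of amino acid catabolism and the urea cycle 3 rose and 1 fell. Oat rose by 0.98 ± 0.16 and Bckdha by 0.78 ± 0.12, while Ftcd changed by -0.79 ± 0.21, a call lost by median centring and on leaving out any 1 array but EGFP replicate 1 (highest adjusted p 0.132). No member of 8 further lists passed: hepatocyte transcription factors (18 tested), phospholipid synthesis (18), apolipoproteins (20), fatty acid oxidation (24), bile acids (18), conjugation enzymes (30), immediate early genes (16) and the circadian clock (18). With the block between 0 and 5 members of each were called, among them Hnf4a, the master regulator of hepatocyte genes, at 0.53 ± 0.19 (adjusted p = 0.102, and 0.0113 with the block).

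The pairing of arrays mattered for cell cycle genes. Of 32 such genes limma placed none past the threshold without the block, but 15 were higher and 1 lower with it, against 8.89% and 5.52% of all genes. Mki67, the marker of cycling cells, read 6.49, 6.41 and 7.72 with EGFP and 7.29, 8.28 and 9.64 with S724A IRE1a. The groups overlap, since EGFP replicate 3 lies above S724A replicate 1, yet each same-number pair was higher with S724A IRE1a, by a mean of 1.53 ± 0.61 (adjusted p = 0.148, and 0.0125 with the block). Birc5, the mitotic protein survivin, differed by 1.76 ± 0.60 (0.0957 and 0.00798), Ccna2 (cyclin A) by 1.47 ± 0.55 (0.121 and 0.00490) and Esco2, a cohesin acetyltransferase, by 1.58 ± 0.58 (0.119 and 0.00264). S724A replicate 3 weighed on these values: without it Mki67 differed by 0.91, Birc5 by 0.98, Ccna2 by 0.86 and Esco2 by 0.86, and the median change of the list went from 0.56 to 0.18. For Esco2 the mean of both probe sets gave 1.00. Mcm5, of the replicative helicase, was the member called lower, at -0.66 ± 0.29 (0.187 and 0.0268). These genes were named after their values were seen.

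S724A IRE1a was set against wild-type IRE1a directly, to ask where the altered protein differs from the intact one. Of 16294 genes limma placed none past the threshold, while 997 had an unadjusted p under 0.05, 6.12% of those tested. That this equals the count of the first comparison is a coincidence of the counts. With trended variances 2 genes passed (Sgk1 and Slc39a6), and with the replicate block 2 (Fam171b and Slc39a6); these and Defb1 were named after their values were seen. Slc39a6, a zinc transporter, read 11.39, 11.37 and 11.11 with EGFP, 10.26, 10.23 and 10.09 with wild-type IRE1a and 11.11, 11.12 and 10.93 with S724A IRE1a. The wild-type arrays lay below both other groups, and S724A minus wild-type was 0.86 ± 0.12 (adjusted p = 0.109, and 0.0111 with the block). Sgk1, a stress- and hormone-induced kinase, read 10.90 to 11.01, 12.07 to 12.24 and 11.48 to 11.60 in the same order, a difference of -0.62 ± 0.10 (adjusted p = 0.165). Defb1, a defensin, was lower with S724A than with wild-type IRE1a by -1.44 ± 0.23 (adjusted p = 0.165).

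Creld2, Pdia6 and Hsp90b1 were higher on each S724A array than on each wild-type array but did not pass. How many of all genes separate these groups in this way was not counted, so the separation is given as values only. Creld2 read 10.41, 10.91 and 10.56 with S724A IRE1a and lay 0.84 ± 0.15 above wild-type IRE1a (adjusted p = 0.203, 95% interval 0.50 to 1.17). Pdia6 lay 0.46 ± 0.12 above (0.21 to 0.71, adjusted p = 0.705) and Hsp90b1 0.39 ± 0.11 above (0.16 to 0.63, adjusted p = 0.801). For Sdf2l1 the wild-type arrays, at 8.23, 9.07 and 9.73, overlapped the S724A arrays, and the difference was 0.78 ± 0.26 (0.22 to 1.34, adjusted p = 0.801). Arfgef3 and Ndufa9 differed by 0.23 ± 0.17 (-0.12 to 0.59) and -0.15 ± 0.09 (-0.36 to 0.05). Cxcl2 read 7.69, 7.77 and 8.13 with wild-type IRE1a, below all 3 S724A arrays, a difference of 2.99 ± 0.87 (1.12 to 4.86, adjusted p = 0.801). These intervals are for single genes and are not adjusted for the number of genes tested. Against the shared EGFP arrays, wild-type IRE1a gave Cxcl2 0.12 ± 0.87 (adjusted p = 0.959), Pdia6 1.55 ± 0.12 (adjusted p = 1.36e-06) and Ndufa9 -1.88 ± 0.09 (adjusted p = 3.47e-08), beside the 3.11, 2.01 and -2.03 of S724A IRE1a.

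**Figure D5:**
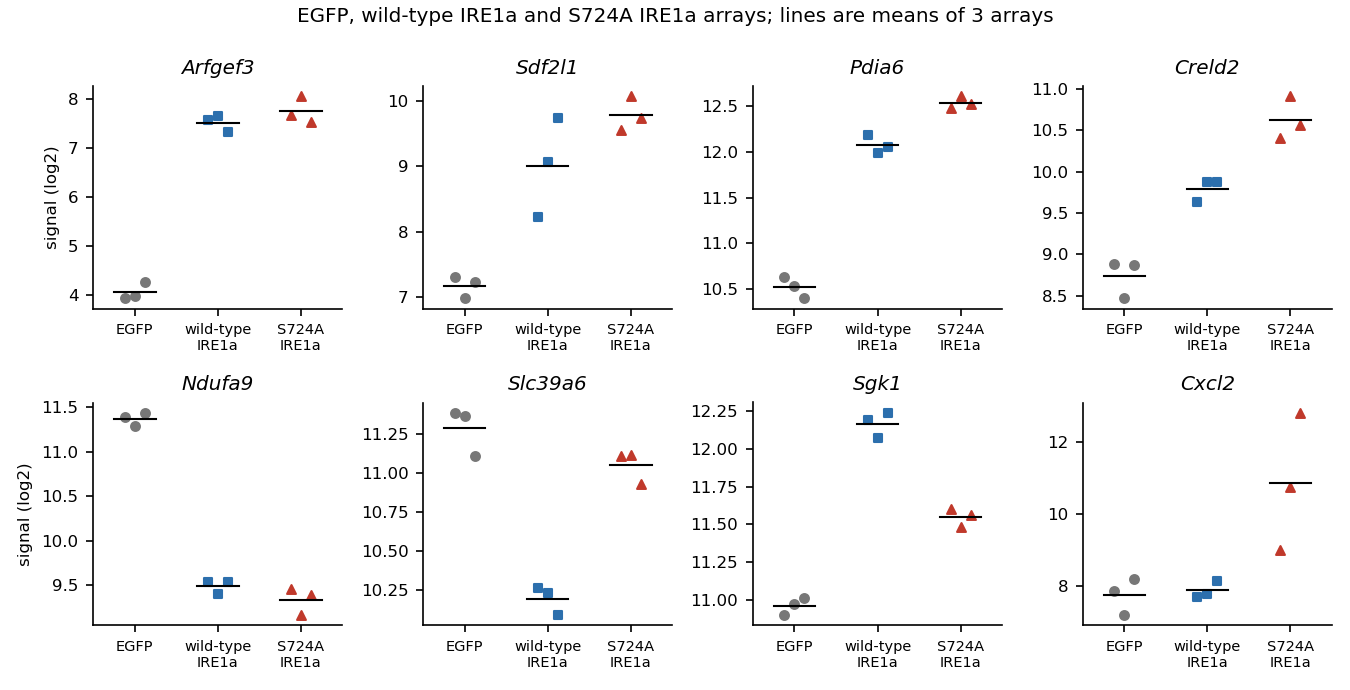
Log2 signals of 8 genes on each EGFP, wild-type IRE1a and S724A IRE1a array at 48 hours, with a line at the mean of 3 arrays; the y axes differ between panels and do not start at 0. Arfgef3 and Ndufa9 lie at like levels with either form of IRE1a, Creld2 and Pdia6 are highest on the S724A arrays, and Slc39a6 is lowest on the wild-type arrays.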

How the data were processed

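RNA of 15 samples was measured on an Affymetrix whole-genome mouse array. The authors' deposited values were normalised with GCRMA, per the submitters' processing notes (version not given in the sources used here). That the deposited signals are on a log2 scale was read from the values, whose array medians lay between 5.69 and 5.83.

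Of 45101 probe sets, 34945 carried 1 gene symbol and were used, 932 carried several and 9160 none. Each gene took its brightest probe set over all arrays, and 16294 genes with a log2 signal of at least 4 on 3 or more arrays were tested. Limma 3.58.1 (R 4.3.3) was fitted to all 5 groups with 10 residual degrees of freedom, with Benjamini-Hochberg adjustment over all genes, and was tested on simulated data. Precision is set by the number of arrays: the median gene's 95% interval was 0.30 wide on either side.

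Pairing by replicate number is not in the labels. All 9 same-number pairs of the 48-hour arrays correlated at 0.20 to 0.54 in their deviations from group means, against -0.39 to 0.08 for the 18 other pairs. Deviations cancel within a group, so the low values of the other pairs follow in part from the positive ones. As no label states the pairing, the main fit left it out, and a fit with that number as a block was an alternative. The other alternatives were quantile normalisation, median centring, the filter, a floor, the 6 arrays alone, trended or robust variances, the mean of probe sets and leaving out each array. The genes named were a core set, among called genes with non-overlapping groups the 15 that rose most and the 15 that fell most, up to 4 members of each list in each direction by smallest p (where none passed, up to 2), and others named after their values were seen. Members and lists were chosen with earlier results of these data known. Where replicates are not separate cultures, p-values measure only the spread between these samples.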

Additional observations from a re-analysis of the deposited data

How the results depend on the processing

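The count of genes past the threshold was 997 and ran from 880 to 1163 under 9 alternatives without the replicate block, was 2347 with it, and lay between 485 and 979 when 1 array was left out. Quantile normalisation gave 459 rises and 490 falls, median centring 601 and 279, and the stricter filter 699 and 307. Among the list members 181 passed, 305 with the replicate block and 137 to 169 when 1 array was left out. Between S724A and wild-type IRE1a 2 genes passed with trended variances, 2 with the replicate block and 0 in each of the other settings run, also when 1 array was left out. Of 209 named genes 151 were called, 115 of them in every alternative that tested the gene, and none of the called genes changed sign. The stricter filter kept 201 of the 209. Of the 58 not called 35 passed with the replicate block. The cause of these shifts was not tested. Of the genes tested 8705 had over 1 probe set.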

Other observations

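Of the 997 genes that passed, 816 belonged to none of the 51 gene lists, and 65 of these were at least 2-fold higher and 50 at least 2-fold lower with S724A IRE1a. The genes below were named after their values were seen. Among the rises were Serp1, a stabiliser of membrane proteins in the ER, at 1.53 ± 0.10 (adjusted p = 4.03e-07), and Selenom, an ER selenoprotein, at 1.94 ± 0.29. The ligase Ufl1 and its partner Cdk5rap3, which attach the ubiquitin-like protein UFM1 at the ER, rose by 1.19 ± 0.16 and 1.47 ± 0.14. The secreted ligands Wnt5a and Cxcl12 rose by 1.92 ± 0.29 and 1.78 ± 0.32, or by 0.81 and 0.68 with the means of their probe sets.

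Among the falls, Vim (vimentin) changed by -1.42 ± 0.33 (adjusted p = 0.0206), Msn (moesin) by -1.41 ± 0.24 and Tpm1 (tropomyosin) by -1.24 ± 0.19, or -0.66 as the mean of all its probe sets. Vim was no longer called without EGFP replicate 2, EGFP replicate 3, or S724A replicate 1 or 3 (highest adjusted p 0.0796). The Golgi protease gene Furin changed by -1.53 ± 0.15 and Tent5c, a poly(A) polymerase, by -1.31 ± 0.24.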
